A study of Homo sapiens with 8 samples.

Results

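Oxidative phosphorylation was examined through the genes of its 5 protein complexes in MDA-MB-157 cells, an established human breast cancer line without estrogen receptor. The members were every gene of the deposited expression table whose symbol names a subunit of complexes I to V (the NDUF, SDH, UQCR, CYC1, COX and ATP5 families and the MT- genes), less 2 pseudogenes. The symbols MT-ATP6 and MT-ATP8 end like a pseudogene name but were kept as true genes. ATP5MF-PTCD1, a joint entry that shares 100% of its exon bases with PTCD1 and ATP5MF, was counted in complex V by its symbol. This gave 96 members of 21059 genes in all, 83 encoded in the nucleus and 13 in mitochondrial DNA. Complex I had 37 nuclear and 7 mitochondrial members, complex II 4 and 0, complex III 10 and 1, complex IV 13 and 3, and complex V 19 and 2.

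Cells were conditioned in low glucose and then kept for 48 hours in serum-free medium at 5 mM glucose for the 4 low glucose libraries or at 25 mM for the 4 high glucose ones. High glucose was the study's model of hyperglycemia in culture. The comparison asked which transcripts differed between these concentrations. It rests on 1 line in T25 flasks, and no library with an added osmotic control was among those analysed. No source used here says whether the replicates were separate cultures, so p-values measure only the spread between these libraries, which may be technical.

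The respiratory chain passes electrons from NADH and succinate through complexes I and II to coenzyme Q, then through complex III and cytochrome c to complex IV, which reduces oxygen. Complexes I, III and IV pump protons out of the mitochondrial matrix, and complex V, the ATP synthase, makes ATP as protons return. Every complex but the second combines proteins from the nuclear genome with a few from mitochondrial DNA, whose genes are transcribed as long joint precursors and then cut at the tRNAs that lie between them. Many tumor lines ferment glucose to lactate even when oxygen is present, which makes the balance between glycolysis and respiration a long-standing subject in cancer cells.

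Expression was given as CPM, counts per 1000000 reads, to which the authors had applied TMM factors (trimmed mean of M values, a scaling between libraries). Groups were compared as log2(CPM + 1), so that changes of low genes are understated. Adjusted p-values came from limma, a linear model fitted to all 21059 genes, with Benjamini-Hochberg adjustment, and a gene was called when its adjusted p was under 0.05. The libraries held an estimated 9721649 to 12482542 reads, and 3 reads, taken as the floor, were worth 0.212 to 0.267 CPM. VIM (2856 to 4116 CPM), CD44 (392 to 497) and SPARC (11953 to 22037) were abundant, and ESR1 reached at most 0.17 CPM. The epithelial genes EPCAM (3.93 to 7.62) and CDH1 (0.33 to 1.41) were low, as is usual for a mesenchymal line. The epithelial keratins KRT8 (76.4 to 138) and KRT18 (156 to 238) were not low. PDGFRB (738 to 1474) and LUM (336 to 919), which also mark fibroblasts, were high in every library. The leukocyte gene PTPRC and the endothelial gene CDH5 reached at most 0.178 and 0.364 CPM. CD14, also a leukocyte gene, reached 5.79 CPM, and the endothelial genes PECAM1 and VWF reached 2.84 and 1.53 CPM. High glucose replicate 1 stood apart from the other libraries of its group, so results that rest on it are given with and without it. In bulk RNA, fewer cells and less RNA per cell cannot be told apart.

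Nuclear members were called lower more than higher, and mitochondrial members higher more than lower. Of the 83 nuclear members, 31 (37.3%) were lower at high glucose, 6 (7.23%) were higher and 46 did not pass. Of the 13 mitochondrial members, 1 (7.69%) was lower, 6 (46.2%) were higher and 6 did not pass. Across all 21059 genes, 24.8% were lower and 22.0% were higher. Among the 11297 genes with a mean of at least 5 CPM, the range in which 80 of the nuclear and all 13 mitochondrial members lay, 33.3% were lower and 33.6% were higher. With all 8 libraries the share of lower nuclear members was therefore near that of genes of like abundance, while the share of higher nuclear members was below it. With a trend on transcript length removed from each library there were 35 lower and 15 higher nuclear calls, and with a trend on GC content removed 37 and 13. In these fits 3962 and 3861 genes of at least 5 CPM were lower, and 4464 and 4298 were higher. The median log2 change was -0.14 for nuclear members and 0.32 for mitochondrial members, against -0.01 for all genes. Without high glucose replicate 1, the nuclear members gave 49 lower and 6 higher calls with a median of -0.23, and the mitochondrial members gave 1 and 8 with a median of 0.38. All 31 nuclear members called lower with 8 libraries were among those 49. In that fit 4032 of the 11297 genes of at least 5 CPM were lower and 3994 were higher. The 49 lower of 83 nuclear members were thus a larger share than that of genes of like abundance.

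Of the 7 mitochondrially encoded complex I subunits 4 rose (57.1%, beside 33.6% of all genes of at least 5 CPM), with MT-ND2, MT-ND1 and MT-ND3 ahead. These proteins form the membrane arm of complex I that moves protons. MT-ND2 (ENSG00000198763.3, chrM:4470-5511 in GRCh37) was at 776, 795, 833 and 845 CPM in the 4 low glucose libraries and at 1588, 1646, 1876 and 1978 CPM in the 4 high glucose libraries. Every high glucose library lay far above every low glucose library. Its mean rose 2.18 times, from 812 ± 32.1 to 1772 ± 185 CPM (SD, 4 libraries each), a log2 change of 1.12 ± 0.08 (SE, adjusted p = 3.42e-05). MT-ND1, its neighbor upstream on mitochondrial DNA (chrM:3307-4262), was at 399, 400, 412 and 429 CPM at low glucose and 620, 650, 771 and 837 CPM at high glucose. Again the groups did not overlap (log2 change 0.80 ± 0.10, adjusted p = 4.81e-04). MT-ND3 (chrM:10059-10404) was at 99.4, 90.4, 98.4 and 93.7 CPM at low glucose and 158, 139, 156 and 158 CPM at high glucose. This shorter gene rose by a log2 change of 0.67 ± 0.05 (adjusted p = 5.17e-05), with high glucose replicate 2 the lowest of its group.

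**Figure D1:**
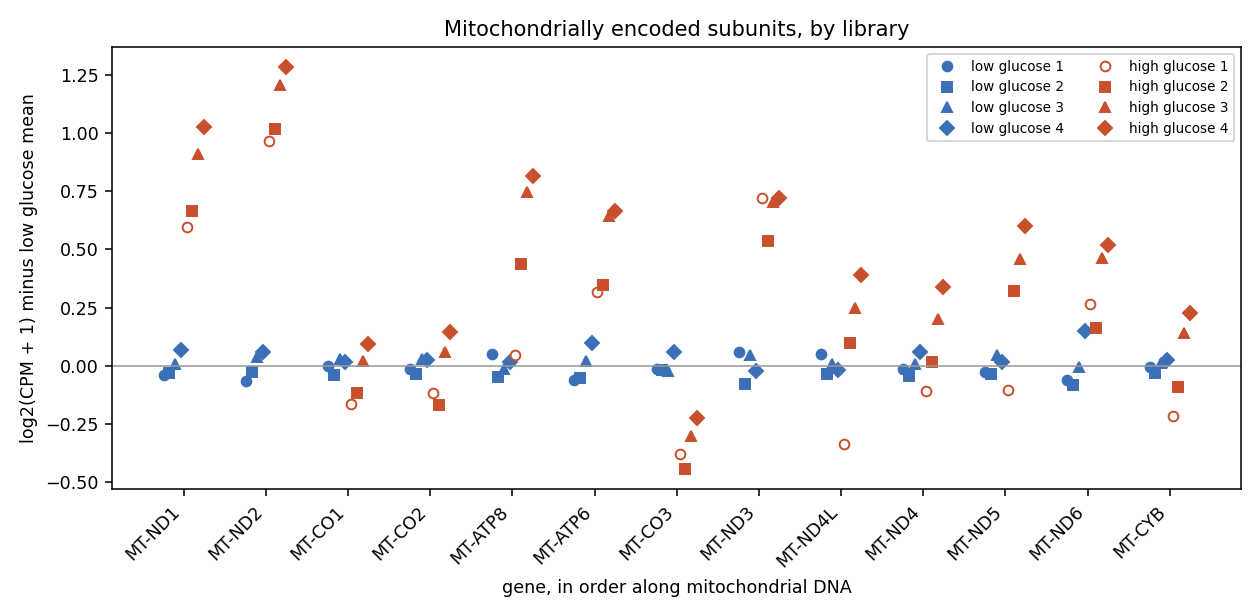
Each point is 1 library's log2(CPM + 1) of a mitochondrially encoded gene minus the mean of the 4 low glucose libraries, with genes ordered along mitochondrial DNA; the open circle is high glucose replicate 1. MT-ND1, MT-ND2 and MT-ND3 lie above 0.5 in all 4 high glucose libraries, MT-CO3 lies below 0 in all 4, and MT-CO1, MT-CO2 and MT-CYB lie on both sides of 0.

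The other 4 mitochondrial subunits of complex I moved less or did not pass. MT-ND6, the only member on the opposite strand of mitochondrial DNA, was at 88.4 to 104 CPM at low glucose and 105 to 135 CPM at high glucose (log2 change 0.35 ± 0.09, adjusted p = 0.0171). MT-ND4 (0.11, adjusted p = 0.437), MT-ND4L (0.10, adjusted p = 0.633) and MT-ND5 (0.32, adjusted p = 0.111) did not pass. In MT-ND5 and MT-ND4L, high glucose replicate 1 lay below all low glucose libraries and the other 3 high glucose libraries lay above them. MT-ND5 was at 537 CPM in that library, at 563 to 596 CPM at low glucose and at 720 to 876 CPM in the remaining high glucose libraries. Without it, MT-ND5 passed with a log2 change of 0.46 (adjusted p = 0.00185) and MT-ND4L with 0.25 (adjusted p = 0.0258).

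Complex V has 2 mitochondrial subunits, and both rose. MT-ATP6, the proton channel subunit next to the rotating ring, was at 857, 861, 905 and 958 CPM at low glucose and 1115, 1137, 1397 and 1418 CPM at high glucose. The groups did not overlap (log2 change 0.49 ± 0.10, adjusted p = 0.00460). MT-ATP8, whose reading frame overlaps that of MT-ATP6 over 22.2% of its length, was at 177 to 190 CPM at low glucose and at 190, 249, 308 and 323 CPM at high glucose. It passed with a log2 change of 0.51 ± 0.16 (adjusted p = 0.0370) although high glucose replicate 1 lay at the top of the low glucose range. The call for MT-ATP8 was lost with the replicate number as a block (adjusted p = 0.0696) and on leaving out any 1 library other than high glucose replicate 1 (adjusted p = 0.0648 to 0.0908).

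None of the mitochondrial subunits of complexes III and IV was called higher. MT-CO1, which with MT-CO2 and MT-CO3 makes the catalytic core of cytochrome c oxidase, was at 3939 to 4142 CPM at low glucose and 3617 to 4331 CPM at high glucose (log2 change -0.04, adjusted p = 0.762). MT-CO2 was at 1834 to 1920 and 1675 to 2080 CPM (log2 change -0.02, adjusted p = 0.883). MT-CYB, the cytochrome b of complex III, was at 1071 to 1114 and 942 to 1280 CPM (log2 change 0.01, adjusted p = 0.959). For these 3 genes the high glucose libraries spread around the low glucose range. MT-CO3 alone fell, from 2115, 2105, 2103 and 2221 CPM to 1642, 1567, 1733 and 1826 CPM (log2 change -0.34 ± 0.06, adjusted p = 0.00314).

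Ratios of genes within a library do not depend on the scaling between libraries, and 3 of them are given here. The ratio of MT-ND2 to MT-CO3 was 0.367, 0.378, 0.396 and 0.380 at low glucose and 0.967, 1.05, 1.08 and 1.08 at high glucose. In this measure replicate 1 of the high glucose group was close to the others of its group. The ratio of MT-ND1 to MT-CO1 ranged from 0.0985 to 0.105 and from 0.171 to 0.193 in the low and high glucose groups. The ratio of MT-ATP6 to MT-CO3 ranged from 0.405 to 0.431 and from 0.679 to 0.806 in the same way.

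Per kilobase of transcript, the mitochondrial genes differed widely in level. At low glucose, MT-CO2 (2754 ± 59.6 CPM per kb), MT-CO3 (2724 ± 72.6) and MT-CO1 (2631 ± 56.7) stood highest. MT-CO3 overlapped in range with both of the others, while MT-CO2 lay above MT-CO1 within each of the 4 libraries. MT-ND4 (1786 ± 53.3) and MT-ATP6 (1315 ± 68.9) followed, then MT-CYB (960 ± 16.5), MT-ATP8 (886 ± 26.5), MT-ND4L (854 ± 21.6) and MT-ND2 (780 ± 30.8). MT-ATP8 and MT-ND4L overlapped in range. The lowest were MT-ND1 (429 ± 14.6), MT-ND5 (319 ± 8.61), MT-ND3 (276 ± 12.1) and MT-ND6 (179 ± 13.6). At high glucose MT-ND2 moved from the ninth to the sixth place, at 1701 ± 178 CPM per kb, and MT-CO2 and MT-ND6 kept the highest and lowest place at 2724 ± 279 and 230 ± 26.7.

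The 2 ribosomal RNAs of mitochondrial DNA, which are no members but lie directly before MT-ND1, fell. MT-RNR1 was at 247 to 271 CPM at low glucose and 207 to 226 CPM at high glucose (log2 change -0.28, adjusted p = 0.00108). MT-RNR2 was at 2141 to 2218 and 1679 to 1908 CPM (log2 change -0.31, adjusted p = 0.00334). The libraries are described for tumors as made from mRNA by a stranded kit, so these levels may depend on the poly(A) tail, which was not tested. Several mitochondrial genes have nuclear copies that share their sequence. Of the 31-base words of MT-ATP6, 61.3% also occur in MTATP6P1, a nuclear pseudogene, and of those of MT-ND2, 56.9% occur in MTND2P28. MTATP6P1 was listed at 128 to 142 CPM at low glucose and 171 to 233 CPM at high glucose, between 0.148 and 0.165 of MT-ATP6 in every library, and MTND2P28 at no more than 3.82 CPM. How reads were divided between such copies is not given in the sources used here. MT-ND3 shared 3.5% of its words with other genes.

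Summed over genes, mitochondrial transcripts stood higher and nuclear ones lower in 3 of the 4 high glucose libraries than in any low glucose library. The 13 mitochondrial genes summed to 14793, 14556, 15112 and 15353 CPM in the low glucose libraries and to 14734, 15413, 17573 and 18686 CPM in the high glucose ones. The 83 nuclear genes summed to 9106, 8745, 8888 and 8706 CPM in the former and to 9611, 7964, 7624 and 7496 CPM in the latter. The ratio of the sums was 1.62, 1.67, 1.70 and 1.76 at low glucose and 1.53, 1.94, 2.31 and 2.49 at high glucose. The library of high glucose replicate 1 was below and the other 3 were above all low glucose libraries, so the groups overlapped. The log2 ratio of the mean ratios, high to low glucose, was 0.29, and 0.41 without that library.

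**Figure D2:**
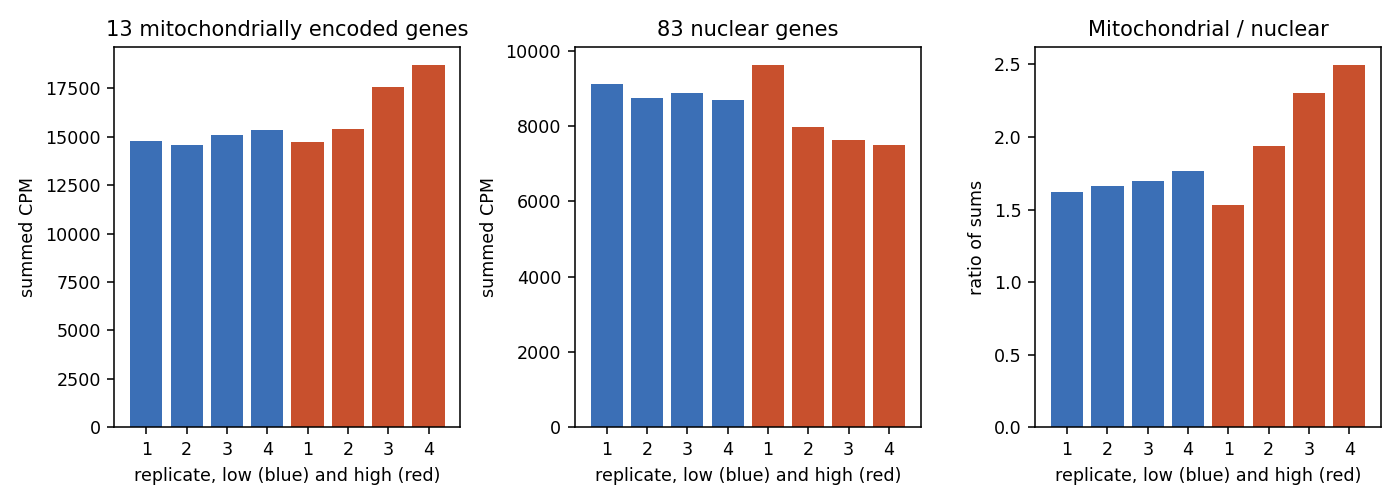
Bars give the summed CPM of the 13 mitochondrially encoded genes, the summed CPM of the 83 nuclear genes and the ratio of the 2 sums in each library, low glucose in blue and high glucose in red. In high glucose replicate 1 the nuclear sum (9611 CPM) is the highest of all 8 libraries and the ratio (1.53) the lowest, while the other 3 high glucose libraries have the highest ratios.

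Nuclear complex I subunits were lower or did not pass. Of 37, 17 (45.9%) fell, beside 33.3% of all genes of at least 5 CPM, and the median log2 change was -0.17. With the length trend removed 19 were lower and 2 higher, where 3962 genes of at least 5 CPM were lower and 4464 higher. Leaving out high glucose replicate 1 gave 24 lower, beside 4032 of the 11297 genes of at least 5 CPM. The 7 nuclear core subunits, which carry the flavin, the iron-sulfur clusters and the coenzyme Q site, gave 3 lower calls, and the 30 accessory subunits gave 14. NDUFB10, an accessory subunit of the membrane arm, was at 52.7, 53.3, 50.96 and 50.6 CPM at low glucose and 39.6, 33.7, 38.2 and 35.2 CPM at high glucose. The groups were well apart (log2 change -0.49 ± 0.05, adjusted p = 2.41e-04). NDUFB4, another membrane arm subunit, was at 58.2 to 63.5 CPM at low glucose and at 47.9, 40.3, 41.0 and 40.7 CPM at high glucose (log2 change -0.52 ± 0.06, adjusted p = 3.56e-04). NDUFB1 was at 58.7 to 62.7 and 31.3 to 44.8 CPM (log2 change -0.71 ± 0.11, adjusted p = 0.00124).

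Core subunits of the same complex did not move as 1 group. NDUFV1, the subunit that binds NADH, was at 78.8, 84.6, 85.6 and 88.5 CPM at low glucose and 63.0, 54.8, 52.7 and 41.9 CPM at high glucose (log2 change -0.67 ± 0.12, adjusted p = 0.00254). NDUFS1, the largest subunit with several iron-sulfur clusters, was at 134 to 139 CPM at low glucose and 128 to 145 CPM at high glucose (log2 change 0.00 ± 0.04, adjusted p = 0.990). NDUFV1 thus lay lower in all 4 high glucose libraries, and NDUFS1 lay on both sides of its low glucose values. NDUFA7 had the lowest log2 change of the complex, -0.77, but 76.7% of its 31-base words also occur in an overlapping annotated gene, and 68.2% to 90.0% of the exon bases of NDUFB8, NDUFV2, NDUFA11 and NDUFA13 are shared in that way, so their values are uncertain. The nuclear complex I member of highest mean level that did not pass was NDUFA1, at 178 to 193 and 170 to 204 CPM (log2 change -0.03, adjusted p = 0.713). Without high glucose replicate 1, NDUFA1 was called lower (log2 change -0.095, adjusted p = 0.0389).

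**Figure D3:**
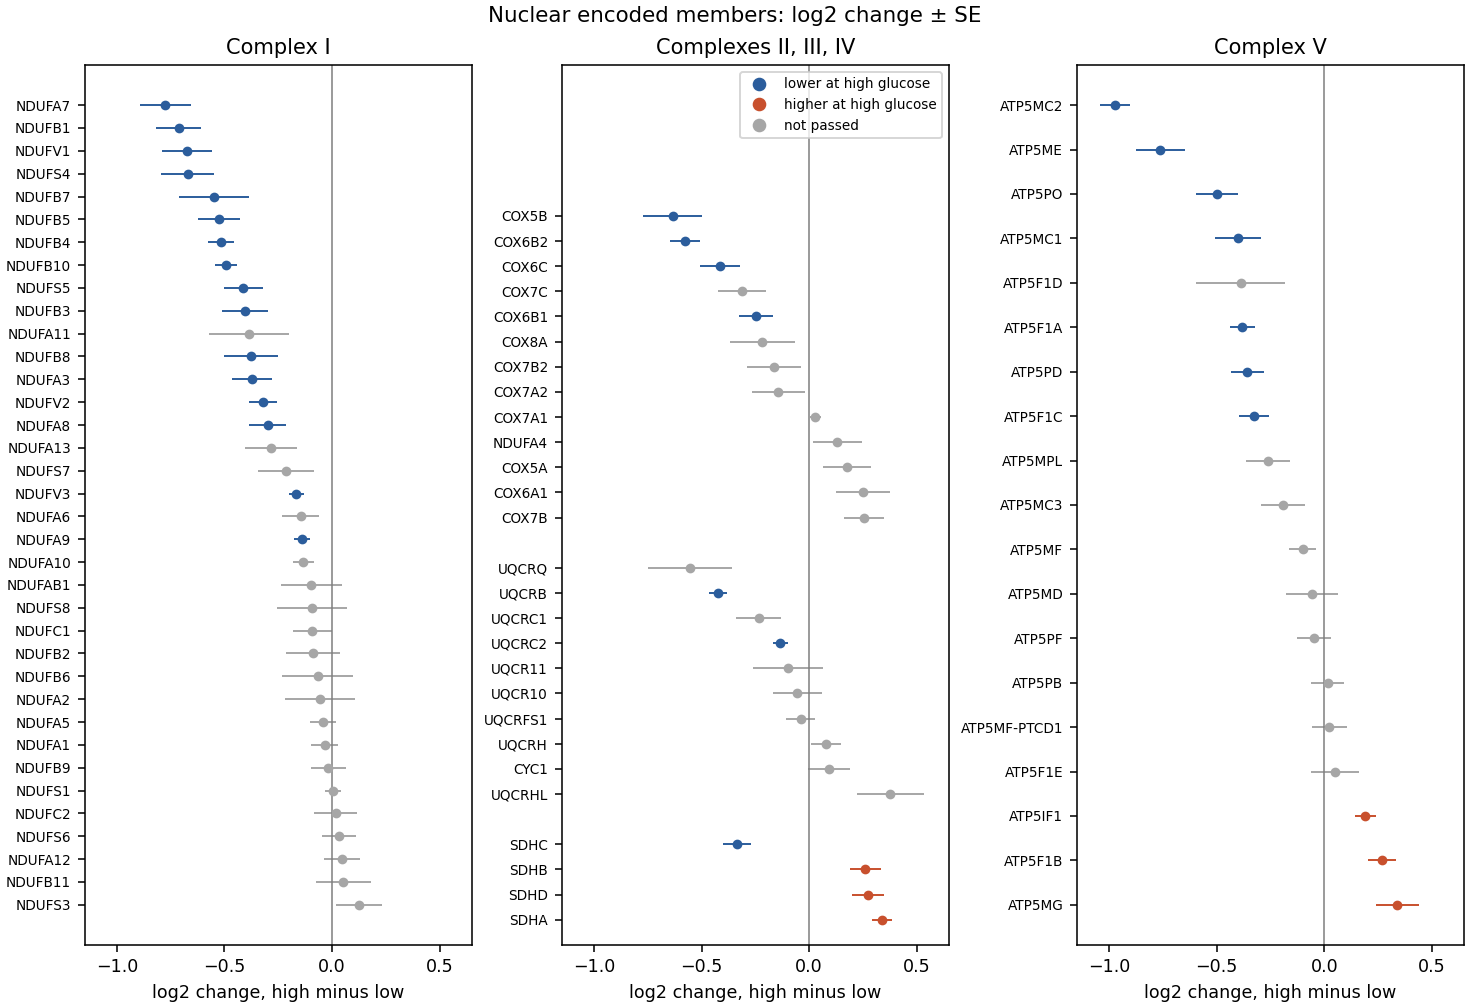
Points are the log2 change, high minus low glucose, of 82 nuclear members with the SE as bars, grouped by complex; blue marks genes called lower, red those called higher and gray those that did not pass. In complex I 16 of the plotted genes are blue and none red, in complex II 3 of 4 are red, and ATP5MC2 lies farthest to the left at -0.97.

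Complex II, succinate dehydrogenase, links the citric acid cycle to the chain, and 3 of its 4 subunits rose. That is 75% higher, beside 33.6% of all genes of at least 5 CPM. SDHA (ENSG00000073578.17), the flavoprotein that oxidizes succinate, was at 174, 187, 183 and 180 CPM at low glucose and 247, 225, 233 and 214 CPM at high glucose. The log2 change was 0.34 ± 0.05 (adjusted p = 7.80e-04), and 68.1% of its words occur in an overlapping annotated gene. SDHB, the iron-sulfur subunit, was at 65.5, 62.9, 63.0 and 60.8 CPM and then 88.2, 69.2, 74.0 and 72.7 CPM (log2 change 0.26 ± 0.07, adjusted p = 0.0227). SDHD, a membrane anchor, was at 93.0 to 95.9 and 105 to 132 CPM (log2 change 0.27 ± 0.07, adjusted p = 0.0187), and 23.8% of its exon bases are shared with an overlapping annotated gene. In all 3 genes every high glucose library lay above every low glucose library. The SDHB call was lost without low glucose replicate 2, 3 or 4 (adjusted p = 0.0525 to 0.0607) and the SDHD call without high glucose replicate 2 (adjusted p = 0.0502). SDHC, the other membrane anchor and partner of SDHD, went the opposite way, from 119, 114, 122 and 122 CPM to 107, 95.7, 84.9 and 90.9 CPM (log2 change -0.34 ± 0.07, adjusted p = 0.00519). The ratio of SDHC to SDHA was between 0.611 and 0.686 in the low glucose libraries and between 0.365 and 0.432 in the others.

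The promoters of nuclear members are shown here for the 3 complex II genes that rose and for ATP5ME and ATP5MC2, complex V genes that fell. They are RefSeq sequences on GRCh38.p14, 5′ to 3′ on the gene's strand, from 250 bases before to 50 after the start, and capitals mark letters of GCGCANGCG (nuclear respiratory factor 1), CCGGAAG (ETS factors such as GABPA) or AAGATGGCG (YY1) on either strand. The table has no entry for SDHC. The windows are chr5:218070-218369 (+) for SDHA, chr1:17053983-17054282 (-) for SDHB, chr11:112086623-112086922 (+) for SDHD, chr4:674227-674526 (-) for ATP5ME and chr12:53676034-53676333 (-) for ATP5MC2.
SDHA: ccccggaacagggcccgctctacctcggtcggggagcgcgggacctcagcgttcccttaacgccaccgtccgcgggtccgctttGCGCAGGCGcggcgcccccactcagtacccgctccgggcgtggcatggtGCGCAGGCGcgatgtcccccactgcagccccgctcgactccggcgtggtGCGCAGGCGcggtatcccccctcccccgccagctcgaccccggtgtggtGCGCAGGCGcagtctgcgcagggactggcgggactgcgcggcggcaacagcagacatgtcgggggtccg
SDHB: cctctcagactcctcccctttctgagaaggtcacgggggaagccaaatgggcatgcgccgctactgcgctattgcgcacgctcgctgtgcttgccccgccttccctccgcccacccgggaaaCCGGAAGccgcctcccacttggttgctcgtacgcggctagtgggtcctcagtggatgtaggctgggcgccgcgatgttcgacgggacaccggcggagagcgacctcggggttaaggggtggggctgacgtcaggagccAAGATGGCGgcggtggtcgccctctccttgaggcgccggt
SDHD: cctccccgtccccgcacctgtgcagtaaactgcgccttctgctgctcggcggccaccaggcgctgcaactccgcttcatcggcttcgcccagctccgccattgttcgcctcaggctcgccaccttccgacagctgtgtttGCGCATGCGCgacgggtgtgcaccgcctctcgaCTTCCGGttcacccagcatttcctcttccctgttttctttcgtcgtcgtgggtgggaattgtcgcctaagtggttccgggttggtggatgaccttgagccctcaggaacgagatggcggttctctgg
ATP5ME: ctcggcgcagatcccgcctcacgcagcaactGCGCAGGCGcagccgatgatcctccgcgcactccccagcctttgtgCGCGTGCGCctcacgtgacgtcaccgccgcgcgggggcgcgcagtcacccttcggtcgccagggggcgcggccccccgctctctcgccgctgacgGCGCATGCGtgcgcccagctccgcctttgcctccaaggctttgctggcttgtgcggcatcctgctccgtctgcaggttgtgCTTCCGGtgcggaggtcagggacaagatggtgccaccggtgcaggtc
ATP5MC2: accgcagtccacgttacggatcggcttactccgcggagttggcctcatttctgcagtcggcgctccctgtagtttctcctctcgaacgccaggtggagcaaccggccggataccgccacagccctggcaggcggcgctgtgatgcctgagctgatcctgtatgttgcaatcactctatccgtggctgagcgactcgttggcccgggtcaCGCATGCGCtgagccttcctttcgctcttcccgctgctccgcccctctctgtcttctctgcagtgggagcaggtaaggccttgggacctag
The SDHA window held 4 matches of the first motif, SDHB 1 of the second and 1 of the third, and SDHD 2 overlapping ones of the first and 1 of the second. ATP5ME, which fell, held 3 of the first and 1 of the second, and ATP5MC2, which also fell, held 1 of the first.

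Such letters were common among the members whichever way they moved. Of the 83 nuclear members, 66 had a promoter in the table, taken as the first listed for each gene. The first motif was in 22 of these 66 (33.3%) and in 8.05% of all 27305 promoters. The ETS motif was in 19 (28.8%) against 10.7% of all, and the YY1 motif in 8 (12.1%) against 1.85% of all. Either of the first 2 motifs was in 12 of 25 genes called lower (48%), in 4 of 5 called higher (80%) and in 20 of 36 that did not pass (55.6%). Matches of different motifs overlapped in 8 of all promoters. A match of letters is a description and not evidence of binding.

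Complex III, the cytochrome bc1 complex, gave few calls with all 8 libraries and more without high glucose replicate 1. Of its 10 nuclear members, 2 fell, none was higher and 8 did not pass, with a median log2 change of -0.08. That is 20% lower, beside 33.3% of all genes of at least 5 CPM. With the length trend removed 2 were lower and 3 higher, where 3962 genes of at least 5 CPM were lower and 4464 higher. UQCRB, which binds near the coenzyme Q site, was at 299, 273, 289 and 282 CPM at low glucose and 227, 208, 212 and 205 CPM at high glucose. The groups were far apart (log2 change -0.42 ± 0.04, adjusted p = 1.70e-04). UQCRC2, a core protein, fell, from a range of 144 to 159 CPM to one of 134 to 141 CPM (log2 change -0.13 ± 0.03, adjusted p = 0.0155). With the length trend removed UQCRC2 no longer passed (log2 change -0.055, adjusted p = 0.245). UQCRQ had the lowest log2 change of the complex, -0.55, but did not pass (adjusted p = 0.0515). Without high glucose replicate 1, UQCRQ was called lower (log2 change -0.73, adjusted p = 0.00352). Neither nuclear catalytic subunit passed. CYC1, cytochrome c1, was at 121 to 125 and 111 to 157 CPM (log2 change 0.09, adjusted p = 0.478). It was called higher with the length trend removed (adjusted p = 0.00194) and with the GC trend removed (adjusted p = 8.93e-04). UQCRFS1, the Rieske iron-sulfur protein, was at 372 to 385 CPM at low glucose and at 426, 355, 344 and 347 CPM at high glucose (log2 change -0.04, adjusted p = 0.693). Without high glucose replicate 1, the only one above the low glucose range, it passed with a log2 change of -0.11 (adjusted p = 0.00310), and complex III gave 6 lower calls. UQCRH was at 99.4 to 108 and 103 to 128 CPM, and the near-identical UQCRHL, which shares 70.3% of its words with other genes, at no more than 4.52 CPM. Both were called higher with the length trend removed (adjusted p = 0.00145 and 0.0116).

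Complex IV, cytochrome c oxidase, had 13 nuclear members, of which 4 fell, none was higher and 9 did not pass, with a median log2 change of -0.16. With all 8 libraries the share of lower genes (30.8%) was near the 33.3% of all genes of at least 5 CPM. With the length trend removed 5 were lower and 4 higher, where 3962 genes of at least 5 CPM were lower and 4464 higher. Leaving out high glucose replicate 1 gave 7 lower, beside 4032 of the 11297 genes of at least 5 CPM. NDUFA4 was counted here, since its protein is now placed in this complex. COX6B2, the testis form of a subunit facing cytochrome c, was at 9.31, 8.96, 7.70 and 9.10 CPM at low glucose and 5.44, 5.32, 5.60 and 5.78 CPM at high glucose. High glucose replicate 1 was within the range of its group for this gene (log2 change -0.58 ± 0.07, adjusted p = 4.21e-04). Of the exon bases of COX6B2, 29.9% are shared with an overlapping annotated gene, so its value is uncertain. COX6B1, its ubiquitous form, was at 250 to 279 CPM and then 257, 211, 206 and 208 CPM (log2 change -0.25 ± 0.08, adjusted p = 0.0363). The COX6B1 call was lost on leaving out any 1 library other than high glucose replicate 1 (adjusted p = 0.0543 to 0.0909). COX5B fell, from a range of 49.9 to 53.9 CPM to one of 26.8 to 43.9 CPM (log2 change -0.63 ± 0.14, adjusted p = 0.00711), and COX6C fell, from 165 to 172 CPM to 116 to 155 CPM (log2 change -0.41 ± 0.09, adjusted p = 0.00891).

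For COX6B, COX7A and COX7B of complex IV, the ubiquitous or liver form was expressed well above the tissue-specific one. COX6A2 and COX8C, the other forms of COX6A1 and COX8A, were not among the members, so those forms were not compared. COX7A2 was at 102 to 112 and 84.4 to 124 CPM (log2 change -0.14, adjusted p = 0.393), and its muscle form COX7A1 had 1 read in 1 of 8 libraries. COX7B was at 164 to 201 and 199 to 250 CPM (log2 change 0.25, adjusted p = 0.0605), and COX7B2 was at 2.39 to 3.92 CPM over all libraries. COX6A1 was at 112 to 124 and 121 to 184 CPM (log2 change 0.25, adjusted p = 0.148), and COX8A at 70.8 to 75.0 and 51.2 to 86.8 CPM (log2 change -0.22, adjusted p = 0.288). None of these passed, and in each of COX7A2, COX7B, COX6A1 and COX8A high glucose replicate 1 was the highest of all libraries. Without that library COX7A2 (log2 change -0.26, adjusted p = 0.0175) and COX8A (log2 change -0.37, adjusted p = 0.00313) were called lower. COX7B and COX6A1 still did not pass, and complex IV gave 7 lower calls. With the length or the GC trend removed both were called higher (COX7B adjusted p = 7.50e-04 and 0.038, COX6A1 2.38e-04 and 0.00885). Both also passed with minimum means of 1 and 5 CPM. COX7B passed with equal totals, the replicate block and without low glucose replicate 1 (adjusted p = 0.025 to 0.0396). Of the exon bases of COX6A1 and COX8A, 32.6% and 35.4% are shared with overlapping annotated genes.

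The ATP synthase had the largest fall of any nuclear member. Of 19 nuclear members 7 fell, 3 rose and 9 did not pass, with a median log2 change of -0.19. With all 8 libraries the share of lower genes (36.8%) was near the 33.3% of all genes of at least 5 CPM, and that of higher genes (15.8%) was below the 33.6%. Without high glucose replicate 1, 11 were lower and 3 higher, beside 4032 and 3994 of the 11297 genes of at least 5 CPM. A set of 3 nuclear genes, ATP5MC1, ATP5MC2 and ATP5MC3, encode the same mature c subunit of the rotating ring with different import sequences. ATP5MC2 (ENSG00000135390.19) was at 161, 160, 165 and 162 CPM at low glucose and 92.3, 77.3, 86.4 and 73.7 CPM at high glucose. Its mean fell to 0.508 of the low glucose mean, from 162 ± 2.45 to 82.4 ± 8.49 CPM (SD, 4 libraries each) (log2 change -0.97 ± 0.07, adjusted p = 3.49e-05). ATP5MC1 was at 47.3, 44.6, 42.9 and 40.3 CPM and then 40.5, 32.9, 29.6 and 29.3 CPM (log2 change -0.40 ± 0.11, adjusted p = 0.0180), and its call was lost without low glucose replicate 1 (adjusted p = 0.0502). ATP5MC3 was at 205, 207, 208 and 194 CPM and then 221, 174, 162 and 160 CPM (log2 change -0.19 ± 0.10, adjusted p = 0.170). Without high glucose replicate 1, ATP5MC3 was called lower (log2 change -0.30, adjusted p = 0.00111). Only for ATP5MC2 were the groups clear of each other. Its share of the 3 genes together was 38.8% to 41% in the low glucose libraries against 26.1% to 31% in the others, and the sum of the 3 was 396 to 417 and 263 to 354 CPM.

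The catalytic head of the synthase, F1, showed opposite changes in its 2 main subunits. ATP5F1A, the alpha subunit, was at 232, 235, 238 and 227 CPM at low glucose and 200, 179, 170 and 167 CPM at high glucose (log2 change -0.38 ± 0.06, adjusted p = 0.00129). ATP5F1B, the beta subunit that carries the catalytic sites, was at 585, 563, 555 and 559 CPM and then 770, 686, 626 and 648 CPM (log2 change 0.27 ± 0.06, adjusted p = 0.0123). Each gene had groups that did not overlap, and the ratio of ATP5F1A to ATP5F1B was between 0.396 and 0.430 in the low glucose libraries and between 0.258 and 0.271 in the others. ATP5ME, a small subunit of the membrane part, fell, from a range of 57.0 to 68.6 CPM to one of 31.8 to 44.95 CPM (log2 change -0.76 ± 0.11, adjusted p = 0.00128), and 39.6% of its exon bases lie opposite an exon of MYL5. ATP5IF1, the inhibitor that stops the synthase from hydrolyzing ATP, rose, from a range of 77.3 to 83.4 CPM to one of 86.9 to 100.4 CPM (log2 change 0.19 ± 0.05, adjusted p = 0.0173). ATP5MG, another membrane part subunit, rose, from a range of 113 to 129 CPM to one of 132 to 182 CPM (log2 change 0.34 ± 0.10, adjusted p = 0.0266), a call that was lost without low glucose replicate 2, 3 or 4 (adjusted p = 0.0591 to 0.0691). Of the exon bases of ATP5MG, 24.4% are shared with an overlapping annotated gene. ATP5F1E, the most abundant nuclear member of the synthase that did not pass, was at 441 to 479 and 419 to 605 CPM (log2 change 0.05, adjusted p = 0.776).

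**Figure D4:**
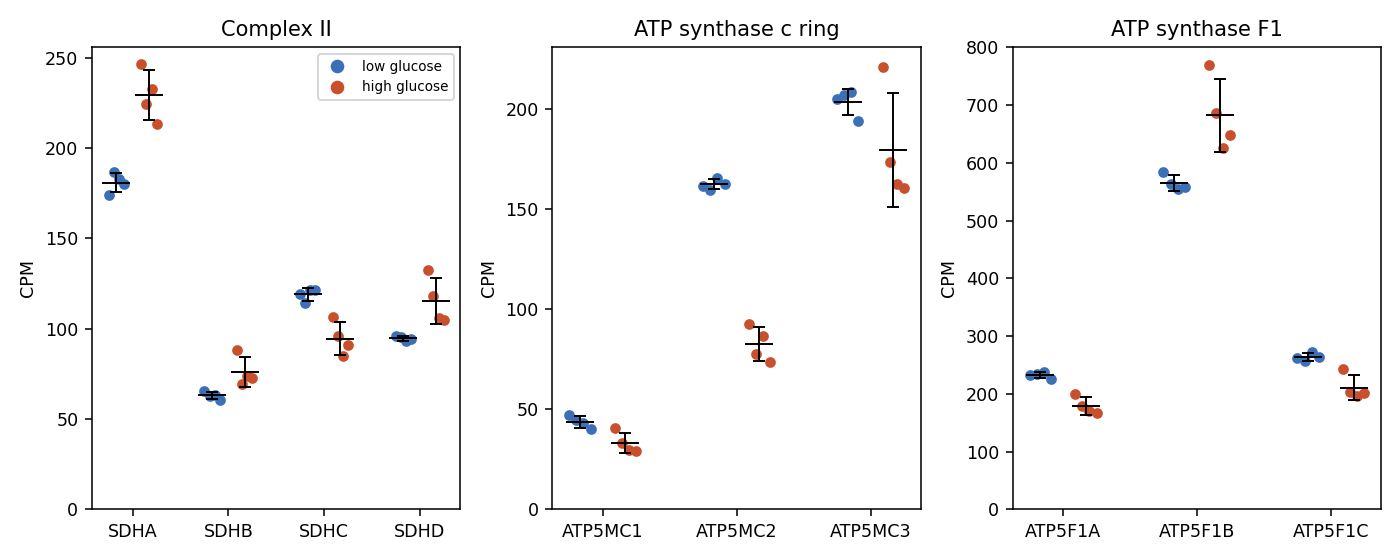
Points are CPM in each library for the complex II subunits, the 3 c ring genes and 3 F1 subunits of the ATP synthase, low glucose in blue and high glucose in red; bars are the mean and SD of 4 libraries. SDHC and ATP5F1A lie lower at high glucose while SDHA and ATP5F1B lie higher, and ATP5MC2 falls from 162 to 82.4 CPM.

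The libraries of the high glucose group differed among themselves in these genes. Of the 4, replicate 1 had the highest value in 79 of the 83 nuclear members and in none of the 13 mitochondrial members. The median nuclear member lay 0.08 above its low glucose mean in that library and 0.18, 0.29 and 0.34 below it in replicates 2, 3 and 4, on the log2 scale. The median mitochondrial member lay 0.10 below in replicate 1 and 0.16, 0.46 and 0.52 above in the others. Nuclear members have short transcripts, with a median of 756 bases against 3435 for genes of at least 5 CPM. The 638 other genes of at least 5 CPM with transcripts under 1000 bases were split in the same way, with medians of 0.06 in replicate 1 and -0.15, -0.20 and -0.24 in replicates 2, 3 and 4. Of those 638 genes 35.6% were lower and 20.7% higher, against 40.8% and 2.04% of the 49 nuclear members under 1000 bases. Of the 34 nuclear members with longer transcripts 32.4% were lower and 14.7% higher, against 33.1% and 34.7% of 10537 other genes. The 34 longer members had medians of 0.119 in replicate 1 and -0.128, -0.155 and -0.146 in replicates 2, 3 and 4. The 10537 other genes of such length had medians of 0.003 to 0.009 in these libraries. The cause of the difference between the high glucose libraries was not tested. With a length trend removed from each library the nuclear median was -0.07, and the mitochondrial members gave 1 lower and 7 higher calls. In that fit 3962 genes of at least 5 CPM were lower and 4464 were higher.

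**Figure D5:**
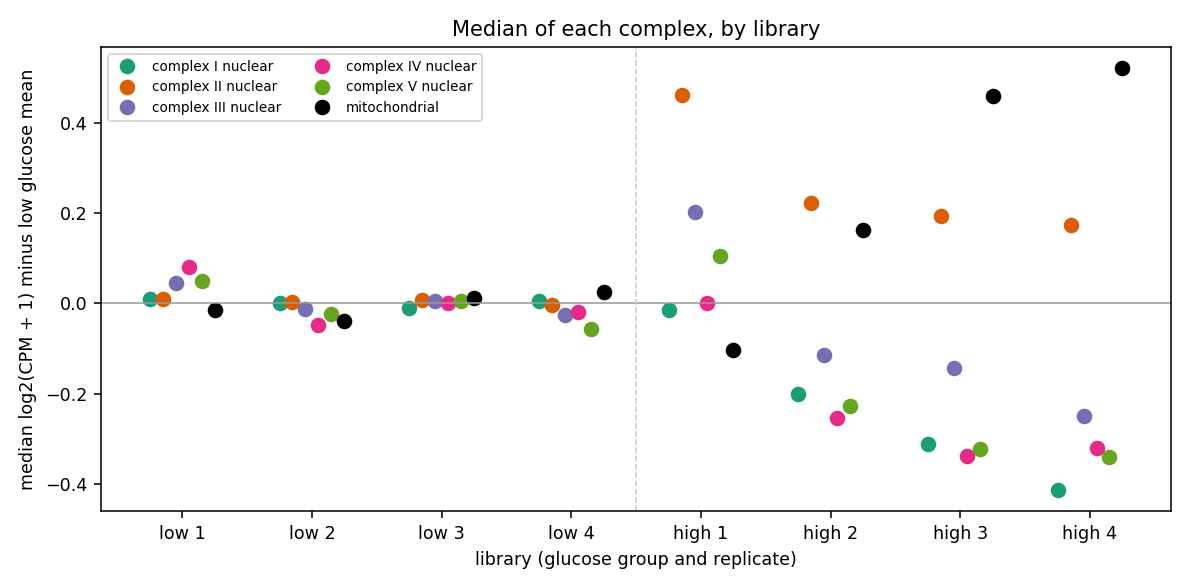
Points are the median over the nuclear members of each complex, and over the 13 mitochondrial members, of log2(CPM + 1) minus the mean of the low glucose libraries, for each of the 8 libraries. Complex II lies above 0 in all 4 high glucose libraries (0.17 to 0.46), and the other nuclear complexes lie below 0 in high glucose replicates 2 to 4 but not together in replicate 1.

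Related genes were described in 12 lists with 169 genes of the table, of which 48 were lower, 58 higher and 63 did not pass. These counts stand beside 33.3% lower and 33.6% higher of all genes of at least 5 CPM, and without high glucose replicate 1 they were 56 and 54. Regulators of mitochondrial biogenesis were mostly higher, with 11 of 17 higher, 1 lower and a median log2 change of 0.24. Without high glucose replicate 1, 10 were higher. TFAM, which packages mitochondrial DNA and starts its transcription, was at 39.5, 42.2, 41.1 and 40.2 CPM at low glucose and 80.5, 83.4, 80.4 and 81.1 CPM at high glucose (log2 change 0.98 ± 0.03, adjusted p = 8.61e-07). YY1 (1.01, adjusted p = 1.78e-06) and the deacetylase SIRT1 (1.22, adjusted p = 3.19e-06) also rose. All 4 high glucose libraries, replicate 1 included, lay far above low glucose in these 3 genes. PPARGC1A, the coactivator PGC-1 alpha, was named after its values were seen, and was at 16.6 to 19.5 and 52.6 to 72.7 CPM (log2 change 1.75, adjusted p = 1.39e-05).

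Genes of mitochondrial transcription and RNA handling gave 9 higher and 4 lower of 25, with a median of 0.13. The share of higher genes in this list (36%) was near the 33.6% of all genes of at least 5 CPM. Leaving out high glucose replicate 1 gave 8 higher and 4 lower. SUPV3L1, a helicase of mitochondrial RNA decay, rose by 1.21 (adjusted p = 2.89e-06) and FASTKD5, which takes part in processing mitochondrial precursors, by 1.05 (adjusted p = 2.07e-06) on the log2 scale. LRPPRC, which keeps mitochondrial mRNAs stable, rose, from a range of 276 to 291 CPM to one of 359 to 383 CPM (log2 change 0.36, adjusted p = 4.77e-05). Of 16 genes of mitochondrial DNA replication, 6 rose (37.5%, near the 33.6% of all genes of at least 5 CPM) and 4 fell (25%). Among those that rose were the helicase TWNK at 0.97 (adjusted p = 1.97e-05), the nuclease MGME1 at 0.77 (adjusted p = 4.56e-05) and the pyrimidine carrier SLC25A33 at 0.91 (adjusted p = 9.68e-05). Of 19 genes of mitochondrial stress and turnover, 9 rose (47.4%, beside 33.6% of all genes of at least 5 CPM) and 2 fell. Leaving out high glucose replicate 1 gave 7 higher and 4 lower in this list. The chaperones HSPD1 (0.74, adjusted p = 1.04e-05), HSPE1 (0.68, adjusted p = 3.71e-05) and HSPA9 (0.40, adjusted p = 3.77e-05) led the list.

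Coenzyme Q synthesis gave 8 lower genes of 13 (61.5%, beside 33.3% of all genes of at least 5 CPM), or 7 without high glucose replicate 1. The list had 2 higher genes (15.4%, beside 33.6%) and a median of -0.31. COQ9 (-0.56, adjusted p = 2.41e-04) and COQ6 (-0.62, adjusted p = 4.94e-04), both needed to build the quinone, fell, while COQ10B, a coenzyme Q binding protein, rose by 0.94 (adjusted p = 4.81e-06). Assembly factors went both ways. Complex I factors gave 7 lower and 7 higher of 19 (36.8% each), near the shares of all genes of at least 5 CPM. ACAD9 (-0.82) and NUBPL (-0.78) were lower and TMEM126B (0.58) was higher. Complex IV factors gave 9 and 9 of 26 (34.6% each), again near those shares, with COA5 (-0.73) and COX15 (-0.62) lower. Complex II factors gave 2 lower (50%, SDHAF4 and SDHAF3) and 1 higher (25%, SDHAF1) of 4. Complex III factors gave 3 lower (42.9%, LYRM7 and BCS1L among them) and 1 higher (14.3%, HCCS, 0.58) of 7. Complex V factors gave 1 lower (20%, FMC1) and 2 higher (40%, TMEM242 and TMEM70) of 5. The FMC1 call was lost with equal totals, with the replicate number as a block (adjusted p = 0.0687) and on leaving out any 1 library other than high glucose replicate 1 (adjusted p = 0.0693 to 0.109). SDHAF3 and LYRM7 lost theirs with the block (adjusted p = 0.0563 and 0.0577), and SDHAF3 also with the length trend removed (adjusted p = 0.0864) and without low glucose replicate 4 (adjusted p = 0.0501).

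Carriers gave 3 lower and 3 higher of 12 (25% each, beside 33.3% and 33.6% of all genes of at least 5 CPM). UCP2, an inner membrane carrier, had the largest fall of the named related genes, from 20.1, 18.7, 18.7 and 18.8 CPM to 7.41, 6.78, 6.93 and 7.55 CPM (log2 change -1.30 ± 0.05, adjusted p = 2.56e-06). VDAC1, the main pore of the outer membrane, rose by 0.31 (adjusted p = 7.26e-04) and VDAC3 fell (log2 change -0.37, adjusted p = 9.65e-04). Of 9 further subunit isoforms and electron carriers, 4 were lower (44.4%) and 1 higher (11.1%). That gene was CYCS, cytochrome c, which passes electrons from complex III to complex IV. It was at 321, 303, 324 and 313 CPM at low glucose and 548, 478, 444 and 484 CPM at high glucose (log2 change 0.63 ± 0.06, adjusted p = 1.83e-04), while COX4I1, a complex IV subunit outside the symbol rule, was at 112 to 117 and 92.5 to 120 CPM (log2 change -0.20, adjusted p = 0.0941). Without high glucose replicate 1, COX4I1 was called lower (log2 change -0.28, adjusted p = 1.28e-04). ETFB (-0.69, adjusted p = 0.00209) and STMP1 (-0.30, adjusted p = 0.00429) fell. NDUFA4L2, a paralog of NDUFA4 known to be induced by low oxygen, was at no more than 0.595 CPM, near the floor.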

How the data were processed

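RNA from 8 libraries of MDA-MB-157 cells was analysed from 1 deposited table of CPM values. The authors scaled these CPM with TMM factors of edgeR. Their methods describe, for tumors, stranded mRNA libraries and alignment to hg19, while the processing notes in the labels name hg38, so the build, counting tool and use of strand of this table are not established. The low values were multiples of 0.01 of the step that 1 read is worth, so counts were fractional estimates and whole reads were not recovered. Depths and floors cover counting error only.

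Members were found by symbol, and members, gene lists, promoters and motifs were chosen with earlier results of these data known. The first motif was shortened by its last letter after the longer form had been counted. Of the table, 18 pseudoautosomal Y copies identical to the X copies were left out. Groups came from the sample titles. The 4 high and 4 low glucose libraries were compared with limma 3.58.1 in R 4.3.3 (lmFit, eBayes with trend, 2-sided, no covariate) on log2(CPM + 1) over all 21059 genes, tested first on simulated data. Named genes were all mitochondrial members, per complex the 3 called nuclear members of smallest adjusted p in each direction and the most abundant member that did not pass, core subunits, isoform pairs and up to 3 genes of each related list. Other members were added to show a range. The values of 1 nuclear member are not reported here, and it is counted but not plotted. Symbols of lists were matched through older names. FASTKD4, COX4I2, SLC25A31 and CKMT2 were not found under these names.

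Annotation was GENCODE 44 on GRCh37, and all 96 members matched. Alternatives were a pseudocount of 0.1, minimum means of 1 and 5 CPM, 2 other scalings, removal of length or GC trends, the replicate number as a block and leaving out each library. Same-numbered libraries of the 2 groups did not deviate together (correlations of -0.04 to 0.07), so the numbers were not taken as pairs. Plots and sums were made in Python 3.11.15.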

Additional observations from a re-analysis of the deposited data

Results flagged for a closer look

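Among 179 groups of 4 libraries over the named genes and the sums, 16 had 1 library whose gap to the nearest other exceeded Dixon's critical share of the group's range. Chance flags about 1 in 20 groups, or 8.9 here. Of the 16, high glucose replicate 1 accounted for 7, each time as the highest library. In them, NDUFB4 was at 47.9 CPM (others 40.3 to 41.0), NDUFA1 at 204 CPM (170 to 175), UQCRC2 at 141 CPM (134 to 135), UQCRFS1 at 426 CPM (344 to 355), COX6C at 155 CPM (116 to 119), COX6B1 at 257 CPM (206 to 211) and COX4I1 at 120 CPM (92.5 to 96.1).

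Elsewhere at high glucose, MT-ND3 was at 139 CPM in replicate 2 (others 156 to 158), TWNK at 33.7 CPM in replicate 3 (30.5 to 30.9) and COX7A1 at 0.0825 CPM, 1 read, in replicate 3 with 0 in the others. At low glucose, MT-CO3 was at 2221 CPM in replicate 4 (others 2103 to 2115), UQCRH at 99.4 CPM in replicate 4 (107 to 108), LYRM7 at 16.6 CPM in replicate 4 (18.0 to 18.2), UCP2 at 20.1 CPM in replicate 1 (18.7 to 18.8), FMC1 at 18.5 CPM in replicate 2 (16.2 to 16.5) and TWNK at 17.4 CPM in replicate 2 (14.6 to 15.1). The causes were not tested.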

How the results depend on the processing

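The counts and medians of nuclear, mitochondrial and related genes stayed within 1.5 times the reported count, or within 1 SD of the reported median, under the alternatives run, with these exceptions. The count of nuclear members called lower was 49 without high glucose replicate 1. The count of nuclear members called higher was 15 with the length trend removed and 13 with the GC trend removed. The median of complex II was 0.378 with the length trend removed. Leaving out 1 library at a time gave 24 to 49 nuclear members called lower, the highest count without high glucose replicate 1. With the replicate block, 30 nuclear members were lower and 8 higher, and 5 mitochondrial members were higher; 28 of the 31 lower and all 6 higher nuclear calls were shared with the unblocked fit.

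Signs changed only among genes that had not passed. With the length trend removed, MT-CO2 was at 0.101, MT-CO1 at 0.055 and NDUFA1 at 0.071. With the GC trend removed, ATP5F1E was at -0.035 and NDUFS1 at -0.039. With equal totals MT-CO2 was at 0.004. Leaving out 1 library gave ranges of -0.076 to 0.028 for MT-CO2, -0.056 to 0.091 for MT-CYB, -0.063 to 0.114 for ATP5F1E, 0.000 to 0.038 for COX7A1, -0.175 to 0.049 for NDUFA4L2 and -0.022 to 0.036 for NDUFS1. The causes were not tested. Of 1382 single gene values under the alternatives, 1291 kept direction and side of the threshold, 40 lost and 34 gained a call, and 17 changed sign.

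Depth limits low genes such as COX7A1 and NDUFA4L2, and 4 libraries per group from 1 line, with no osmotic control, limit the rest.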
